A study of Mus musculus with 9 samples.

Results

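The genes of arginine metabolism were examined in sorted mouse lung macrophages. The set held 10 genes taken by symbol: the arginases Arg1 and Arg2, the inducible nitric oxide synthase Nos2, the citrulline recycling genes Ass1 and Asl with the Ass1 retrocopy Gm5424, the arginine transporters Slc7a1 and Slc7a2, and the ornithine-using enzymes Odc1 and Oat. All 10 were listed among the 24346 gene symbols measured. All 10 also reached 1 FPKM or more in 3 or more of the 9 samples, as 10686 genes did in all. FPKM are fragments assigned to a gene, scaled to the length of its transcript and to the library size of the sample. Nos2 met that level through Tumor-macrophage alone.

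RNA sequencing covered 3 populations from female C57BL/6 mice at postnatal week 10, with 3 samples in each. Ctrl-AM were alveolar macrophages (AMs, the macrophages that live in the airspaces) of mice that received vehicle in the left lung. Tumor-AM were AMs of mice that received tdTomato-labelled Lewis lung carcinoma cells there, 1 mouse tumor line in mice of the same strain. Tumor-macrophage were the tumor-associated macrophages (TAMs) of such mice. All cells were sorted as CD45+ and autofluorescent, AMs as Siglec-F+ CD11b- and TAMs as Siglec-F- F4/80+ CD11b+, from digested lungs that were not perfused.

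Macrophages handle arginine in several competing ways. Arginase splits it into urea and ornithine, from which ornithine decarboxylase starts the polyamines and ornithine aminotransferase leads to glutamate and proline. Nitric oxide synthase instead turns arginine into nitric oxide and citrulline, and argininosuccinate synthase and lyase can rebuild arginine from that citrulline. High Arg1 is a textbook mark of many TAMs and of macrophages exposed to interleukin-4, and high Nos2 one of macrophages exposed to interferon-γ and bacterial products.

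The values of Ass1 and Gm5424 had to be read together, so their sequences are given first. In the GENCODE vM21 annotation of GRCm38 (mm10), Ass1 lay at chr2:31470207-31520672 on the plus strand, with 16 exons and 1696 bases in its transcript Ass1-201. Gm5424 was annotated as a processed pseudogene, a single exon of 1240 bases at chr10:62071123-62072362 on the plus strand. Over those 1240 bases the transcripts were 99.52% identical, with 0 gaps and 6 substitutions. Counted from 1 at the first base of the Ass1 start codon, with the Ass1 base first and the Gm5424 base last, these were T399C, T429C, A520T, G656C, T1011C and C1143T. The 90 coding bases below hold 2 of them, shown in capitals, and are the stretch in which the copies are easiest to tell apart. The Ass1 bases come from exons 5 to 7, joined, within chr2:31481140-31488586, and those of Gm5424 from chr10:62071462-62071551.
Ass1: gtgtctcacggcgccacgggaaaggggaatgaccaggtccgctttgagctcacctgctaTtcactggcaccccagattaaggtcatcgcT
Gm5424: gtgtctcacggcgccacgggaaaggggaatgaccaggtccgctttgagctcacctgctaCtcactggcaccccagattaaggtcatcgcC

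The first 398 coding bases held no difference at all. A read of 75 bases, the length sequenced here, drawn from such a stretch carries nothing that assigns it to either gene. Of all possible windows of 75 bases, 46.92% of those in Ass1-201 also occurred in Gm5424, and 65.27% of those in Gm5424 also occurred in Ass1. Of the 761 shared windows, 504 crossed an exon junction of Ass1, so that they are continuous in the genome only at Gm5424. The sum of the FPKM of both genes (Ass1 + Gm5424) is therefore given beside each of them. At the lengths above, a read listed under Gm5424 adds more to that sum than a read listed under Ass1. Windows of Arg1, Arg2, Nos2, Asl, Slc7a1, Slc7a2 and Oat occurred in no other annotated transcript, whereas 30.46% of those of Odc1 occurred in 12 other genes.

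**Figure D1:**
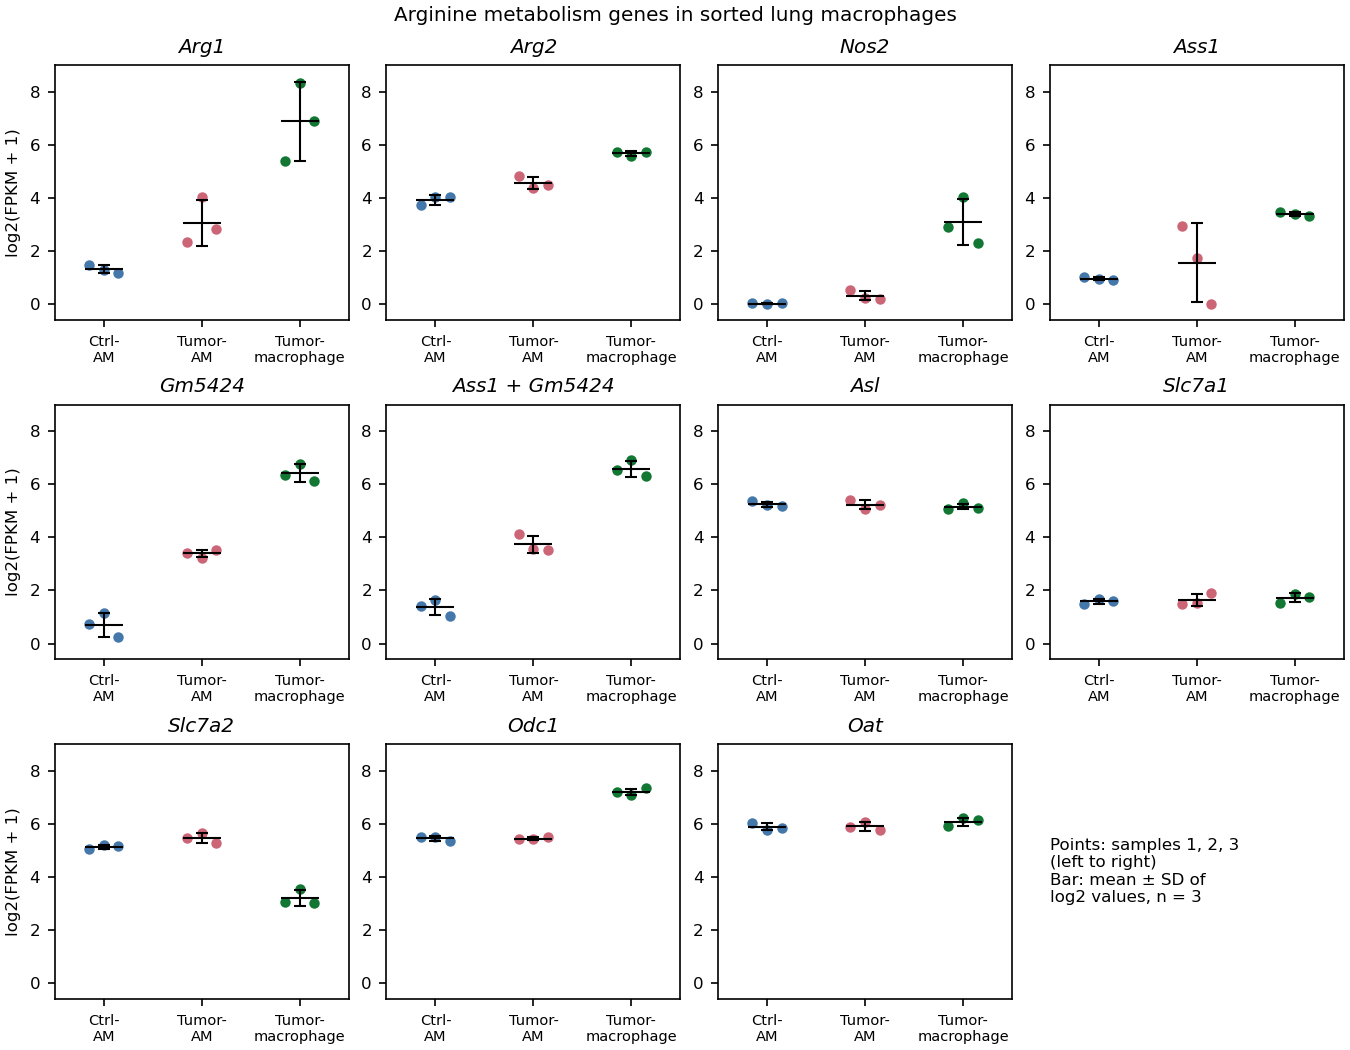
Expression of the 10 genes and of the sum Ass1 + Gm5424 in each sample, as log2(FPKM + 1) on the vertical axis, by population on the horizontal axis. Points are samples and bars the mean ± SD (n = 3); Arg1, Arg2, Nos2, Gm5424 and the sum climb from Ctrl-AM over Tumor-AM to Tumor-macrophage without overlap, Odc1 is high and Slc7a2 low in Tumor-macrophage alone, and the groups overlap for Asl, Slc7a1 and Oat.

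The order of the genes by FPKM, which is a level per transcript length, differed between AMs and TAMs. In Ctrl-AM, Oat stood first at 58.6 ± 5.74 (SD, n = 3), followed by Odc1, Asl and Slc7a2 with means from 34.3 to 42.8, of which neighbouring genes overlapped. Arg2 came next at 14.4 ± 1.91. Slc7a1, Ass1 + Gm5424 and Arg1 followed at means of 1.5 to 2.02, with overlap between neighbours, and Nos2 was last at 0.0135. In Tumor-AM the order was Oat, then Slc7a2 and Odc1, which overlapped, then Asl, which overlapped Slc7a2, then Arg2, then Ass1 + Gm5424 and Arg1, which overlapped, Slc7a1 and Nos2. In Tumor-macrophage, Odc1, Ass1 + Gm5424, Oat, Arg2 and Asl followed each other without overlap, then came Nos2 and Slc7a2, which overlapped, and Slc7a1. Arg1 had the highest mean there, 161.9 FPKM, but its range overlapped those of Odc1, the sum, Oat and Arg2, and Odc1 lay above Arg1 in 2 of the 3 samples. Without Tumor-macrophage 2 the mean of Arg1 was 80.3 FPKM, below Odc1 (152.6) and the sum (85.1).

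Differences were tested with limma on log2(FPKM + 1) over all 10686 genes, with Benjamini-Hochberg adjusted p-values and a threshold of 0.05. Between Tumor-AM and Ctrl-AM, 2 of the 10 genes (Arg2 and Gm5424) were higher in Tumor-AM and 0 were lower, where 10.3% of all genes tested passed, 7.11% as higher and 3.18% as lower. Between Tumor-macrophage and Tumor-AM, 6 were higher in Tumor-macrophage (Arg1, Arg2, Nos2, Ass1, Gm5424, Odc1) and Slc7a2 was lower, where 48.6% of all genes passed, 24.2% as higher and 24.4% as lower. Between Tumor-macrophage and Ctrl-AM, the same 7 genes passed in the same directions, where 54.8% of all genes did, 27.7% as higher and 27.1% as lower. The comparisons share samples and are not independent of each other. Nos2 entered the test through Tumor-macrophage alone and had to be higher there. Its place in the Tumor-macrophage counts of this paragraph was therefore set by the filter. The shares of 2 and 7 genes of 10 stand against backgrounds of 10.3%, 48.6% and 54.8%, and the median log2 changes of the 10 genes were 0.31, 1.44 and 1.75 against 0.014, 0.0012 and -0.0082 over all genes. Ass1 and Gm5424 share read windows but count here as 2 genes, and their sum passed as higher in all 3 comparisons. The 3 samples of 1 group lay clear of the 3 of the other in 5, 7 and 7 of the 10 genes in these comparisons, against 32.3%, 55.3% and 62.3% of all genes (18.9%, 27.6% and 31.1% with the first-named group higher). Levels ran Ctrl-AM, Tumor-AM, Tumor-macrophage in rising order with no overlap in 4 of the 10 (Arg1, Arg2, Nos2 and Gm5424) and in 8.3% of all genes tested.

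**Figure D2:**
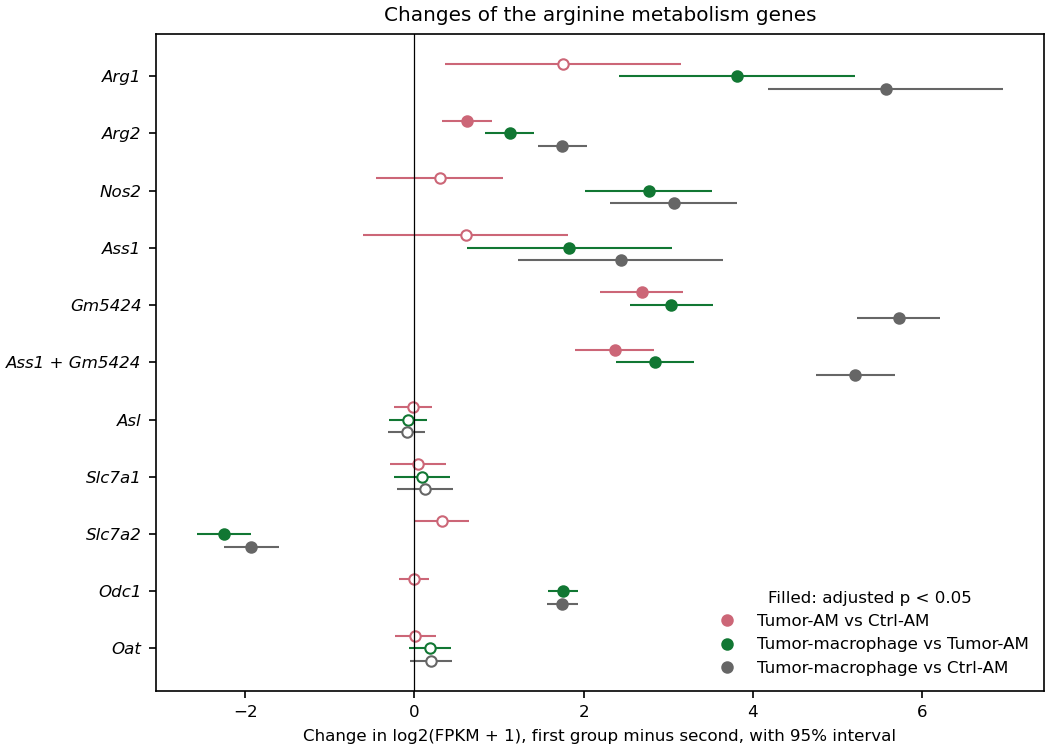
Change in log2(FPKM + 1) of each gene in the 3 comparisons (horizontal axis, first group minus second), with 95% intervals of the limma fit; filled points passed an adjusted p of 0.05. Arg1, Gm5424 and the sum lie furthest to the right between Tumor-AM and Ctrl-AM, Slc7a2 lies left of 0 in both comparisons with Tumor-macrophage, and the intervals of Asl, Slc7a1 and Oat include 0 in all 3.

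Arginine enters macrophages through cationic amino acid transporters, of which Slc7a1 (CAT-1) is found in most cells and Slc7a2 (CAT-2) is the form known to be regulated in macrophages. Slc7a2 was the single gene of the 10 that was lower in TAMs. Its FPKM were 32.2, 35.5 and 35.1 for Ctrl-AM, 43.5, 49.2 and 37.5 for Tumor-AM, and 7.27, 10.7 and 7.20 for Tumor-macrophage. All 6 AM samples lay far above the 3 TAM samples, and the Tumor-AM samples all lay above the Ctrl-AM samples by a smaller margin. Slc7a2 was lower in Tumor-macrophage relative to Tumor-AM (log2 change -2.25 ± 0.15 SE, adjusted p = 4.2e-07) and than in Ctrl-AM (-1.93 ± 0.15, adjusted p = 1.1e-06). The difference between Tumor-AM and Ctrl-AM was 0.32 ± 0.15 with an adjusted p of 0.203, and it did not pass the threshold. Slc7a2 overlaps the annotated gene Gm26584 on the opposite strand, and strand use in counting was not stated.

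Slc7a1 stayed low in every population, between 1.79 and 2.72 FPKM over the 9 samples. Its groups overlapped throughout, and no comparison passed the threshold (adjusted p of 0.911, 0.653 and 0.497). The interval of the log2 change ran from -0.29 to 0.37 between Tumor-AM and Ctrl-AM and from -0.24 to 0.42 between Tumor-macrophage and Tumor-AM. The ratio of Slc7a2 to Slc7a1 FPKM was 17.0 ± 0.92 for Ctrl-AM, 21.4 ± 6.72 for Tumor-AM and 3.62 ± 0.52 for Tumor-macrophage, with no overlap between AMs and TAMs (exact permutation test, two-sided, p = 0.1 for either AM population against Tumor-macrophage, the smallest that 3 against 3 samples allow).

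Both arginase genes were higher in TAMs, and their balance differed between the populations. Arg1, the cytosolic arginase, had FPKM of 1.8, 1.46 and 1.24 in the Ctrl-AM samples, 4.09, 15.3 and 6.15 in the Tumor-AM samples and 40.8, 325 and 119.7 in the Tumor-macrophage samples. Every Tumor-AM sample lay above every Ctrl-AM sample, and every Tumor-macrophage sample above those. The second sample was the highest of both tumor groups, and the TAM samples spread over a wider range than those of any other member. The FPKM correspond to 22 to 28 reads per sample in Ctrl-AM, 60 to 244 in Tumor-AM and 576 to 4716 in Tumor-macrophage, recovered from the steps of the values.

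Arg1 was higher in Tumor-macrophage than in Tumor-AM (log2 change 3.81 ± 0.63 SE, adjusted p = 0.00049) and than in Ctrl-AM (5.57 ± 0.63, adjusted p = 2.6e-05). Mean FPKM differed 19.0-fold between Tumor-macrophage and Tumor-AM, 9.41-fold without Tumor-macrophage 2 and 31.6-fold without Tumor-AM 2. Between Tumor-macrophage and Ctrl-AM the ratio was 108 and became 53.6 without Tumor-macrophage 2. In Tumor-AM the mean was 5.69-fold that of Ctrl-AM (3.42-fold without Tumor-AM 2), with a log2 change of 1.76 ± 0.63 and an adjusted p of 0.11, which did not pass. That call depended on the TAM samples, which share the estimate of the spread. The adjusted p was 0.0243 with the AM samples alone, 0.036 without Tumor-macrophage 1 and 0.0353 without Tumor-macrophage 2, and it ran from 0.0243 to 0.279 over the 18 alternatives.

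Arg2, the mitochondrial arginase, differed less between populations and less within them. Its values were 12.2, 15.5 and 15.5 FPKM in Ctrl-AM, then 27.3, 19.5 and 21.6 in Tumor-AM, with 52.7, 46.8 and 51.9 in Tumor-macrophage. The 3 ranges did not overlap. Arg2 was raised in Tumor-AM over Ctrl-AM (log2 change 0.62 ± 0.13 SE, adjusted p = 0.0153). Without Ctrl-AM 1, its lowest sample, the change was 0.52 with an adjusted p of 0.0635, and over the 18 alternatives the adjusted p ran from 0.0116 to 0.0635. It was higher again in Tumor-macrophage than in Tumor-AM (1.12 ± 0.13, adjusted p = 4.2e-05). Arg2 overlaps Vti1b and Gm48780 on the opposite strand.

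**Figure D3:**
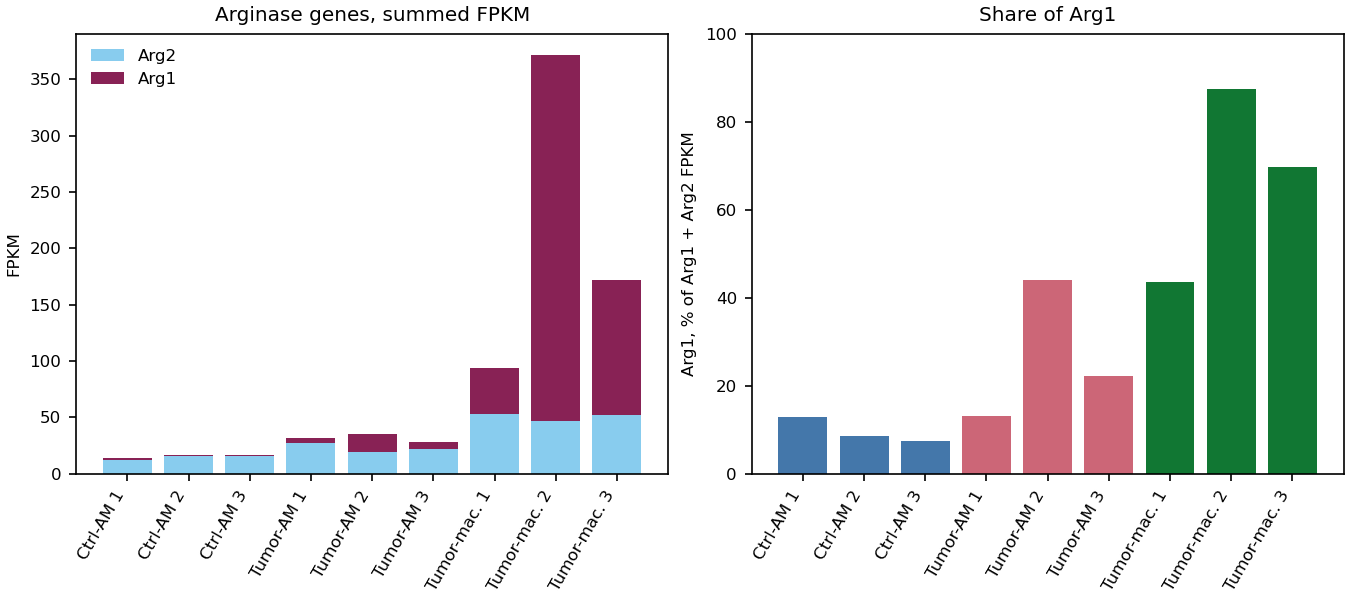
Left, FPKM of Arg2 (light) and Arg1 (dark) stacked in each sample; right, Arg1 as a percentage of both, with bars coloured by population. Both panels start at 0. Arg1 makes up 7.38% to 12.8% in Ctrl-AM and 43.6% to 87.4% in Tumor-macrophage, and Tumor-AM 2 (44.0%) lies among the Tumor-macrophage samples.

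Arg1 made up 12.8%, 8.64% and 7.38% of the summed arginase FPKM for Ctrl-AM, 13%, 44.0% and 22.2% for Tumor-AM, and 43.6%, 87.4% and 69.8% for Tumor-macrophage. In AMs of control mice Arg2 was thus the more abundant arginase transcript in every sample, as it was in all 3 Tumor-AM samples and in Tumor-macrophage 1. The share did not overlap between Ctrl-AM and Tumor-AM, or between Ctrl-AM and Tumor-macrophage, and it did overlap between the tumor populations (exact permutation test, two-sided, p = 0.1, 0.1 and 0.2). Summed arginase FPKM was 15.9 ± 1.65 in the Ctrl-AM samples, 31.3 ± 3.57 in the Tumor-AM samples and 212 ± 144 in the Tumor-macrophage samples.

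Ornithine decarboxylase, encoded by Odc1, makes putrescine, the first polyamine, from the ornithine that arginase releases. Odc1 was high in TAMs and overlapped between the AM populations. Its FPKM were 43.8, 44.8 and 39.9 in the Ctrl-AM samples, 41.6, 41.7 and 44.5 in the Tumor-AM samples and 145, 134.7 and 160.2 in the Tumor-macrophage samples. All 3 TAM samples lay above all 6 AM samples. Odc1 was 3.44-fold higher in Tumor-macrophage than in Tumor-AM (log2 change 1.76 ± 0.082 SE, adjusted p = 4.0e-08), and the interval between Tumor-AM and Ctrl-AM was -0.19 to 0.17. Its shared windows lie in 12 other annotated genes, of which Gm15645 alone was in the table, at no more than 10.8 FPKM. Odc1 overlaps Gm22748 on the same strand.

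Ornithine aminotransferase, encoded by Oat, sends ornithine toward glutamate and proline. Oat ran from 53.2 to 73.0 FPKM over the 9 samples, with overlap between all groups. No comparison passed, with intervals of -0.23 to 0.26 between Tumor-AM and Ctrl-AM and -0.065 to 0.43 between Tumor-macrophage and Tumor-AM. The ratio of Odc1 to Oat was 0.735 ± 0.082 in Ctrl-AM, then 0.728 ± 0.106 in Tumor-AM, and 2.2 ± 0.31 in Tumor-macrophage, without overlap between AMs and TAMs (exact permutation test, two-sided, p = 0.1). Oat overlaps Fgfr2 on the same strand.

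Nos2, the inducible nitric oxide synthase, was all but missing from AMs and present at a modest level in TAMs. Values were 0.0215, 0 and 0.0189 FPKM for Ctrl-AM, 0.434, 0.169 and 0.154 for Tumor-AM, and 6.53, 15.3 and 3.98 for Tumor-macrophage. The 3 ranges did not overlap. In reads, these were 1, 0 and 1 in Ctrl-AM, then 19, 8 and 8 in Tumor-AM, with 275, 660 and 188 in Tumor-macrophage.

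Nos2 was higher in Tumor-macrophage than in Tumor-AM (log2 change 2.77 ± 0.34 SE, adjusted p = 5.6e-05) and than in Ctrl-AM (3.06 ± 0.34, adjusted p = 2.1e-05). Because Nos2 passed the filter through Tumor-macrophage alone, it had to differ there, and these p-values add no support. Scaled to depth, its reads stood at a ratio of 34.6 between Tumor-macrophage and Tumor-AM (95% interval from counting error alone, 24.7 to 49.95). The ratio of mean FPKM became 20.8 without Tumor-macrophage 2 and 53.2 without Tumor-AM 1. For Tumor-AM over Ctrl-AM the reads gave a ratio of 18.7 with an interval of 4.79 to 160.1, which rests on 35 reads against 2. The corresponding ratio of mean FPKM was 18.7 and became 12.0 without Tumor-AM 1 and 12.5 without Ctrl-AM 2, whose value was 0. The log2 change of 0.30 ± 0.34 had an adjusted p of 0.65, and adding 1 to values this low leaves little of such a ratio. The adjusted p ran from 0.0836 to 0.831 over the 14 alternatives in which Nos2 passed the filter.

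Citrulline recycling runs through argininosuccinate synthase (Ass1) and argininosuccinate lyase (Asl). The summed values of Ass1 and its retrocopy Gm5424 climbed with tumor bearing and from AMs to TAMs. Ass1 + Gm5424 had FPKM of 1.70, 2.12 and 1.06 for Ctrl-AM, 16.4, 10.8 and 10.6 for Tumor-AM, and 91.6, 118.9 and 78.5 for Tumor-macrophage. The ranges were far apart in both steps. The sum was 7.73-fold higher in Tumor-AM relative to Ctrl-AM (log2 change 2.36 ± 0.21 SE, adjusted p = 0.00021) and 7.66-fold higher in Tumor-macrophage than in Tumor-AM (2.85 ± 0.21, adjusted p = 1.1e-06). It passed under all 18 alternatives in each of the 3 comparisons.

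In both tumor populations most of that sum was listed under Gm5424, and in 2 of the 3 Ctrl-AM samples most was listed under Ass1. Gm5424 had 0.680, 1.2 and 0.184 FPKM in the Ctrl-AM samples, 9.66, 8.44 and 10.6 in the Tumor-AM samples and 81.6, 109.3 and 69.6 in the Tumor-macrophage samples, with no overlap. It was raised in Tumor-AM over Ctrl-AM (log2 change 2.69 ± 0.22 SE, adjusted p = 0.000158) and higher again in Tumor-macrophage (3.04 ± 0.22, adjusted p = 1.0e-06). The ratio of Tumor-AM to Ctrl-AM means was 13.9, or 22.1 without Ctrl-AM 2, and that of Tumor-macrophage to Ctrl-AM means 126, or 200.9 without it.

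The values listed under Ass1 itself were 1.02, 0.926 and 0.880 FPKM in Ctrl-AM, then 6.73, 2.34 and 0.000169 in Tumor-AM, with 10.03, 9.63 and 8.91 in Tumor-macrophage. Tumor-AM 3 was close to 0 for Ass1 while its Gm5424 value was the highest of the 3 Tumor-AM samples. The log2 change between Tumor-AM and Ctrl-AM was 0.61 ± 0.55 (adjusted p = 0.552) and became 1.39 (adjusted p = 0.0221) without Tumor-AM 3. Over the 18 alternatives this adjusted p ran from 0.0221 to 0.946. Ass1 was higher in Tumor-macrophage than in Tumor-AM (1.83 ± 0.55, adjusted p = 0.0176), a call that was lost with a pseudocount of 0.1 (adjusted p = 0.0565) and without the filter (adjusted p = 0.0529).

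**Figure D4:**
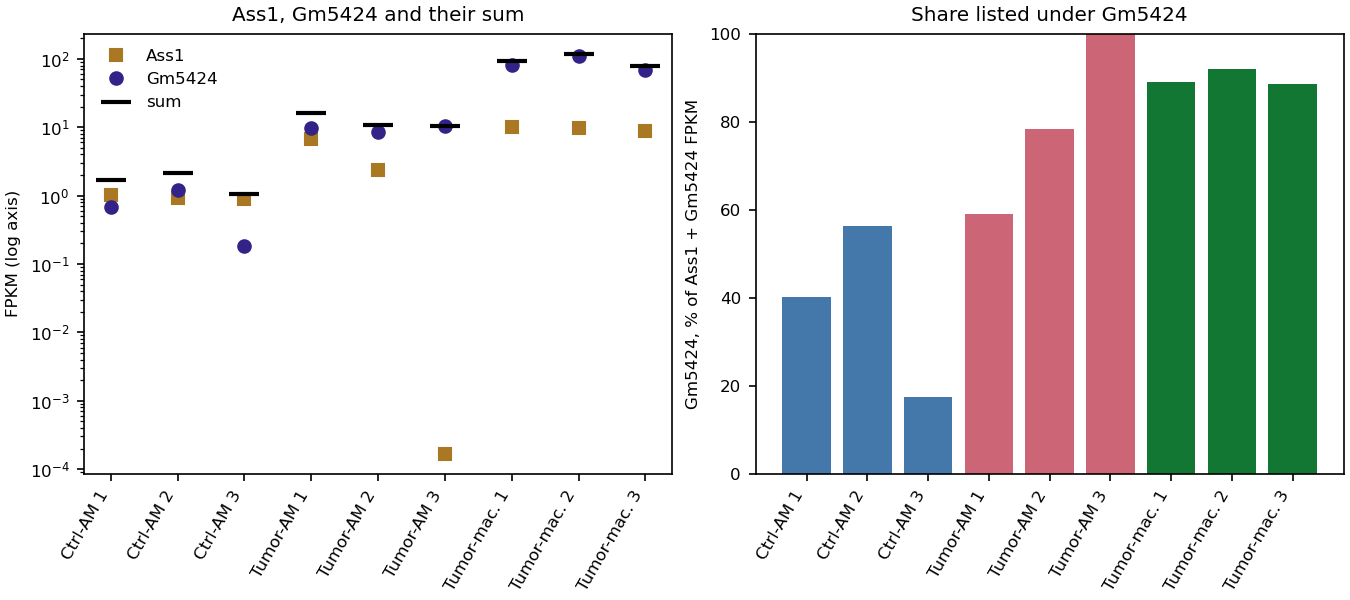
Left, FPKM of Ass1 (squares), Gm5424 (circles) and their sum (bars) in each sample, on a log axis; right, Gm5424 as a percentage of the sum, with bars coloured by population. The sum separates the 3 populations, whereas the share listed under Gm5424 ranges from 17.3% to 56.4% in Ctrl-AM and from 58.9% to 99.998% in Tumor-AM.

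Gm5424 made up 40.1%, 56.4% and 17.3% of the sum for Ctrl-AM, 58.9%, 78.3% and 99.998% for Tumor-AM, and 89.1%, 91.9% and 88.6% for Tumor-macrophage. The unweighted share differed without overlap between Ctrl-AM and either tumor population and overlapped between the tumor populations (exact permutation test, two-sided, p = 0.1, 0.1 and 0.5). How the reads of the shared windows were assigned was not stated, and whether the split between the copies reflects transcription of Gm5424 was not tested.

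Asl, the lyase that follows, passed in no comparison. Over the 9 samples it ran from 32.7 to 41.2 FPKM, and all groups overlapped. Its intervals were -0.24 to 0.21 between Tumor-AM and Ctrl-AM and -0.30 to 0.15 between Tumor-macrophage and Tumor-AM. The ratio of Ass1 + Gm5424 to Asl was 0.0436 ± 0.014 for Ctrl-AM, 0.339 ± 0.055 for Tumor-AM and 2.75 ± 0.41 for Tumor-macrophage, and none of these ranges overlapped (exact permutation test, two-sided, p = 0.1 for each pair). The sum was thus below Asl in all 6 AM samples and above it in all 3 TAM samples. Ass1 alone, at most 10.03 FPKM, lay below Asl in all 9 samples.

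The other genes around arginine were taken from 8 lists of 85 symbols, of which 82 were in the table and 63 were tested. Between Tumor-AM and Ctrl-AM, 14 were higher and 2 lower; between Tumor-macrophage and Tumor-AM, 24 were higher and 11 lower; and between Tumor-macrophage and Ctrl-AM, 30 were higher and 12 lower. The shares of 16, 35 and 42 of 63 compare with the backgrounds of 10.3%, 48.6% and 54.8% given above. P4ha2 and Slc6a8 entered the test through Tumor-macrophage, so the filter favoured their place among the genes higher there. The urea cycle list had 0 of 5 genes above the filter. Cps1, which feeds ammonia into the liver's urea cycle, and Agmat were listed at 0 in all 9 samples, and Otc reached at most 0.175 FPKM.

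**Figure D5:**
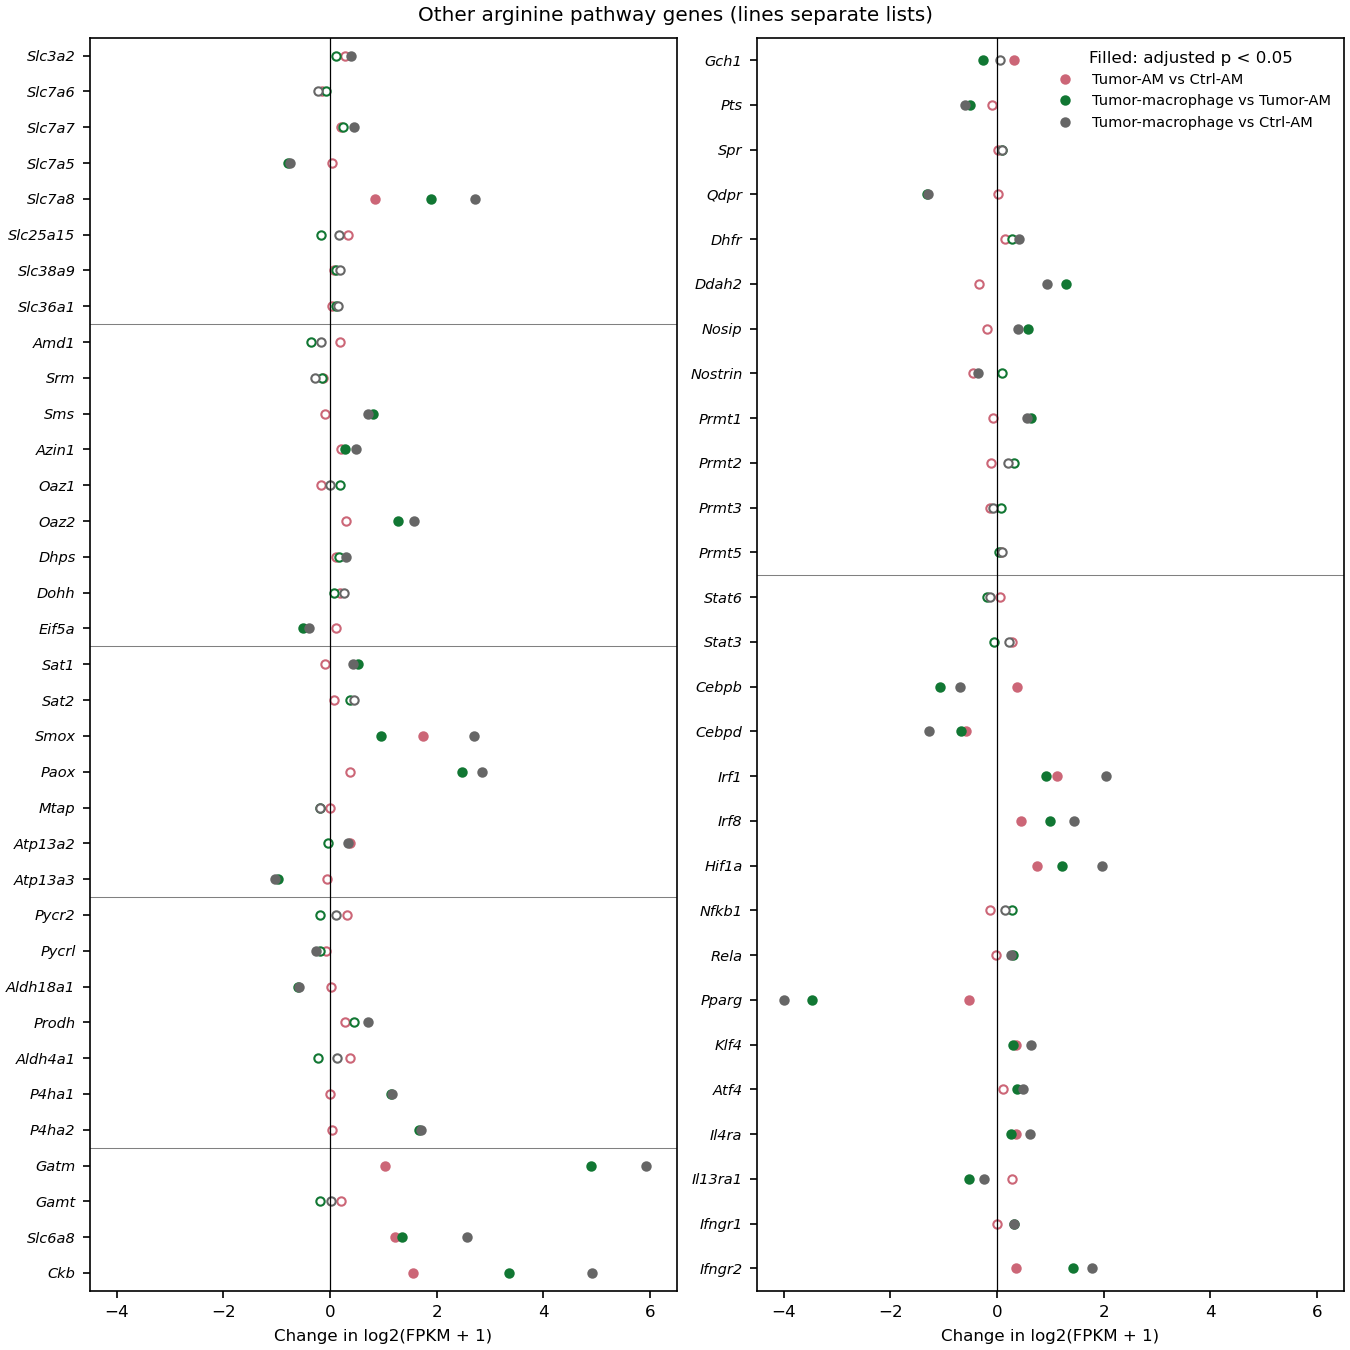
Change in log2(FPKM + 1) of the 63 tested pathway genes in the 3 comparisons (horizontal axis, first group minus second), grouped by list, with filled points for an adjusted p under 0.05. Gatm, Ckb and Slc6a8 of the creatine list lie to the right in all comparisons, and Pparg lies furthest to the left in both comparisons with Tumor-macrophage.

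Creatine synthesis begins with arginine, and 3 of the 4 creatine genes tested were higher in each of the 3 comparisons, where 7.11%, 24.2% and 27.7% of all genes were. Slc6a8, 1 of these 3, entered the test through Tumor-macrophage, so the filter favoured its place in the counts with that population. Gatm, the amidinotransferase that joins arginine and glycine in the committed step, had mean FPKM of 2.46 ± 0.46 (SD, n = 3) in the Ctrl-AM samples, 6.12 ± 1.49 in the Tumor-AM samples and 210.1 ± 31.0 in the Tumor-macrophage samples. Its ranges did not overlap, with 1.93 to 2.72, 4.93 to 7.80 and 191.9 to 245.8 FPKM. Gatm was higher in Tumor-AM relative to Ctrl-AM (log2 change 1.03 ± 0.16 SE, adjusted p = 0.0038) and higher again in Tumor-macrophage (4.90 ± 0.16, adjusted p = 3.5e-09). In Tumor-macrophage its mean exceeded that of Arg1, although their ranges overlapped.

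Creatine kinase B (Ckb) followed the same order, with mean FPKM of 4.90, 16.5 and 175 and log2 changes of 1.55 ± 0.16 (adjusted p = 0.00038) and 3.35 ± 0.16 (adjusted p = 4.0e-08). The creatine transporter Slc6a8 was low throughout, at means of 0.164, 1.83 and 5.88 FPKM, and rose by 1.22 ± 0.23 and 1.35 ± 0.23 (adjusted p = 0.00802 and 0.000569). It reached 1 FPKM in 2 of the 6 AM samples and so entered the test through Tumor-macrophage. The filter thus favoured a higher value there, and the second of these p-values adds no support. Gamt, which methylates the product of Gatm to creatine, passed in no comparison and had means of 18.4, 21.5 and 18.6 FPKM. Of the 75-base windows of Ckb, 13.45% occurred in another gene.

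Of the 9 tested genes of polyamine synthesis and control beside Odc1, 0 passed between Tumor-AM and Ctrl-AM, and 3 were higher and 1 lower in Tumor-macrophage relative to Tumor-AM. These 4 of 9 lie near the 48.6% of all genes that passed there, and 10.3% passed in the first comparison. Those higher were Oaz2, an antizyme that directs ornithine decarboxylase to degradation (17.4 to 43.5 FPKM in the means, log2 change 1.28 ± 0.091 SE, adjusted p = 8.3e-07), spermine synthase (Sms, 0.80 ± 0.16, adjusted p = 0.00166) and the antizyme inhibitor Azin1 (0.28 ± 0.09, adjusted p = 0.0244). The one lower was Eif5a, which carries the spermidine-derived residue hypusine (-0.50 ± 0.086, adjusted p = 0.000634). Spermidine synthase, Srm, passed in no comparison.

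Of 7 tested genes of polyamine breakdown and transport, 2 were higher between Tumor-AM and Ctrl-AM (7.11% of all genes), and 3 were higher and 1 lower between Tumor-macrophage and Tumor-AM (24.2% and 24.4%). Spermine oxidase, Smox, ranged from 9.07 to 12.7 FPKM in Ctrl-AM, from 27.9 to 47.4 in Tumor-AM and from 71.5 to 86.4 in Tumor-macrophage. Its log2 changes were 1.75 ± 0.19 (adjusted p = 0.00051) from Ctrl-AM to Tumor-AM and 0.95 ± 0.19 (adjusted p = 0.00175) from there to Tumor-macrophage. Paox, the oxidase of acetylated polyamines, stood at means of 4.66 and 6.05 FPKM in the AM populations and reached 38.2 in Tumor-macrophage (2.48 ± 0.20 against Tumor-AM, adjusted p = 2.7e-06). Sat1, which acetylates spermidine and spermine, was abundant at means of 809, 761 and 1097 FPKM and was higher in Tumor-macrophage than in Tumor-AM (0.52 ± 0.093, adjusted p = 0.000852). The transporter gene Atp13a3 was lower there (-0.97 ± 0.11, adjusted p = 2.8e-05). Windows of Sms and Paox occurred in other genes to 28.19% and 26.39%.

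On the proline branch beyond Oat, 0 of 7 tested genes passed between Tumor-AM and Ctrl-AM (10.3% of all genes) and 3 between Tumor-macrophage and Tumor-AM (48.6%). In the latter, the collagen prolyl 4-hydroxylase subunits P4ha1 (1.15 ± 0.11 SE, adjusted p = 7.7e-06) and P4ha2 (1.66 ± 0.21, adjusted p = 7.5e-05) were higher. P4ha2 was at most 0.176 FPKM in AMs and 1.48 to 3.72 in Tumor-macrophage, the population through which it entered the test and therefore had to differ. Aldh18a1, which makes proline and ornithine precursors from glutamate, was lower (-0.59 ± 0.13, adjusted p = 0.00324). Among 8 tested transporters, Slc7a8 (LAT2) was raised in Tumor-AM over Ctrl-AM (0.84 ± 0.097, adjusted p = 0.000753) and higher again in Tumor-macrophage (1.89 ± 0.097, adjusted p = 7.8e-08), and Slc7a5 (LAT1) was lower in Tumor-macrophage relative to Tumor-AM (-0.79 ± 0.12, adjusted p = 0.000354). Both carry neutral amino acids.

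Nitric oxide synthases need tetrahydrobiopterin. Of 12 tested genes for this cofactor, the synthases and methylarginines, 1 was higher between Tumor-AM and Ctrl-AM (7.11% of all genes), and 3 were higher and 3 lower between Tumor-macrophage and Tumor-AM (24.2% and 24.4%). Gch1, which starts its synthesis, was higher in Tumor-AM relative to Ctrl-AM (46.1 against 36.7 FPKM in the means, log2 change 0.32 ± 0.078 SE, adjusted p = 0.0279) and lower in Tumor-macrophage relative to Tumor-AM (-0.26 ± 0.078, adjusted p = 0.0178). Qdpr, which regenerates the cofactor, fell from 142.6 to 56.8 FPKM in the means between Tumor-AM and Tumor-macrophage (-1.32 ± 0.089, adjusted p = 5.5e-07), and Pts was lower as well (-0.52 ± 0.13, adjusted p = 0.00711). Ddah2, which removes the methylarginines that inhibit nitric oxide synthases, was higher in Tumor-macrophage (1.28 ± 0.16, adjusted p = 8.1e-05). The other synthases, Nos1 and Nos3, stayed under 0.21 FPKM in every sample.

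Transcription factors and receptors known to act at Arg1 or Nos2 made up 16 of the 63 tested genes. Between Tumor-AM and Ctrl-AM, 7 of 16 were higher and 2 lower (7.11% and 3.18% of all genes), and between Tumor-macrophage and Tumor-AM, 9 were higher and 4 lower (24.2% and 24.4%). Irf1, an interferon-induced factor, rose by 1.13 ± 0.18 SE (adjusted p = 0.0039) and by a further 0.91 ± 0.18 (adjusted p = 0.00166). Hif1a, the hypoxia-inducible factor, rose by 0.75 ± 0.12 (adjusted p = 0.00418) and by 1.21 ± 0.12 (adjusted p = 1.3e-05).

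Pparg, the factor that sets AM identity and a known regulator of Arg1, fell by 0.53 ± 0.088 on the log2 scale from Ctrl-AM to Tumor-AM (adjusted p = 0.00455) and by a further 3.46 ± 0.088 to Tumor-macrophage (adjusted p = 4.6e-10). Cebpb, which binds the Arg1 enhancer, was raised in Tumor-AM over Ctrl-AM (0.37 ± 0.10, adjusted p = 0.0446) and lower in Tumor-macrophage relative to Tumor-AM (-1.06 ± 0.10, adjusted p = 9.1e-06). Stat6, the interleukin-4 signal carrier, passed in no comparison, at means of 80.6, 83.7 and 73.2 FPKM.

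Some genes resembled the members in pattern over the 9 samples, measured as the root mean square difference of log2(FPKM + 1) after centring each gene. Closest to Arg1 were Sdc4 (0.61), Adam8 (0.64) and Ly6i (0.73), where Arg1 itself varied by a root mean square of 2.46. Closest to the sum, beside Gm5424, were Hpse (0.31) and Pmp22 (0.34), where the sum varied by 2.15. Nos2 was nearest to Il12rb1 (0.23), Sectm1a (0.25) and Ifi205 (0.29), with 1.44 for Nos2 itself. Slc7a2 was nearest to Cdc42ep2 (0.17), F10 (0.18) and Vkorc1l1 (0.19), and Arg2 to H2-M3 (0.098), Mfsd7b (0.13) and Atp8b2 (0.13). Odc1 was nearest to Tm4sf5 (0.072), Rap1gap2 (0.087) and Asb2 (0.094), all of them at means under 0.1 FPKM in AMs, against means above 42 FPKM for Odc1.

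The summed FPKM of the AM markers named by the study (Pparg, Mrc1, Marco, Siglecf, Siglec1) was 767 to 834 in Ctrl-AM, 551 to 834 in Tumor-AM and 96.2 to 118.7 in Tumor-macrophage. That of its 4 TAM markers (Ccr2, Cx3cr1, Tgfb3, Ly6c2) was 6.58 to 8.35, 11.7 to 14.3 and 149 to 193, with none of the 4 at 0 in any group. The summed TAM markers lay higher in all 3 Tumor-AM samples than in any Ctrl-AM sample, beside Arg1, Nos2 and Ass1 + Gm5424. Singly, Ccr2 and Ly6c2 did so too, whereas Cx3cr1 and Tgfb3 overlapped between Ctrl-AM and Tumor-AM. As a percentage of the Tumor-macrophage mean, Tumor-AM stood at 5.27% for Arg1, 2.94% for Nos2 and 13.1% for Ass1 + Gm5424, against 10.9% (Ccr2), 0.844% (Cx3cr1), 4.18% (Tgfb3) and 14% (Ly6c2) among the markers and 0.451% (C1qa), 0.692% (C1qb) and 0.457% (C1qc) for the complement C1q genes. Ctrl-AM stood at 0.926%, 0.157%, 1.69%, 4.17%, 0.611%, 1.91%, 9.41%, 0.12%, 0.162% and 0.122% for the same genes in that order. The part of TAMs among the sorted Tumor-AM in these values was not tested. In bulk samples, fewer cells of a type and less RNA per cell cannot be told apart.

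Depth estimated from the steps of the values was 9960000 to 12500000 reads per sample, on the library scale behind the deposited FPKM. Summed FPKM ran from 635560 to 785745. Fibroblast markers (6 of 6 in the table) had summed FPKM of 3.24 to 6.40 for Ctrl-AM, 8.03 to 50.6 for Tumor-AM and 6.11 to 9.61 for Tumor-macrophage, and lung epithelial markers (8 of 8) of 127.6 to 264.7, 62.7 to 114.1 and 20.9 to 76.4. Neutrophil markers (9 of 10 in the table), relevant because neutrophils of the mouse also express arginase, summed to 134.6 to 160.9, 134.5 to 206.3 and 66.1 to 103. Most of that sum was S100a8 (50.9 to 144.3 FPKM over the 9 samples), S100a9 (3.28 to 32.2) and Mmp8 (4.75 to 49.1), with Cxcr2 at 2.19 to 6.08 and Retnlg at 0.216 to 3.66, and the granule genes Mpo, Ngp, Camp and Ltf were each at most 1.8. Summed B cell markers (4 of 5) were 31.5 to 58.2 in Tumor-macrophage and at most 16.8 in AMs, and dendritic cell markers (6 of 6) 25.0 to 56.4 against at most 17.9. Eosinophil and mast cell markers (7 of 7) summed to at most 0.703 FPKM in AMs, with Epx at 0 in all 9 samples. In Tumor-macrophage 1, 2 and 3 they summed to 4.05, 17.7 and 8.98, the order in which Arg1 ran. Singly, Cpa3, Mcpt4, Fcer1a and Ccr3 ran in that order, whereas Kit and Prg2 did not. The lung epithelial sums ran in the order of Arg1 too, whereas the neutrophil, B cell and dendritic cell sums ran in the reverse order. Those of T and NK cells ran in neither. Only 3 samples set these orders, which can be shared by chance. T and NK cell markers (8 of 8) summed to 419 to 528 in AMs and 30.9 to 63.7 in Tumor-macrophage, nearly all of it Cd2 in AMs, whereas Cd3e ran from 0.265 to 1.55 in AMs and 1.14 to 3.13 in Tumor-macrophage and Nkg7 from 3.3 to 11.9 and 13.4 to 22.8. The part of these cells in the values of the arginine genes was not tested.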

How the data were processed

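The study sorted 3 macrophage populations, 3 samples each, prepared full-length cDNA (SMART-Seq HT kit) for Nextera libraries, and sequenced single-end reads of 75 bases. Per the labels, the authors mapped reads to mm10 with TopHat2 2.1.1 and Bowtie2 and deposited FPKM from Cuffdiff 2.2.1, 1 value per gene symbol and sample. The annotation, strand use and handling of reads that fit several genes are not given in the sources used here.

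From the deposited FPKM, log2(FPKM + 1) was fitted with limma 3.58.1 (R 4.3.3), an intensity trend and 1 shared spread, for genes with at least 1 FPKM in at least 3 of 9 samples. Tests were two-sided, with Benjamini-Hochberg adjustment over all 10686 genes and a threshold of 0.05. A pseudocount of 1 understates changes of low genes. Errors are SE for log2 changes and SD for FPKM. Ass1 + Gm5424 replaced both genes in a second table. Values derived per sample (shares, ratios) had exact permutation tests, which cannot go below p = 0.1. The study gives 3 mice per population, and the labels do not say which samples share a mouse.

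Reads were recovered from the steps of low FPKM values, within a tolerance of 0.03, for genes where they came out whole. They were not whole for Ass1, Gm5424 and Slc7a1. Intervals from reads are exact at 95% and cover counting error alone. Sequences and positions came from GENCODE vM21 on GRCm38. On simulated data for Tumor-AM against Ctrl-AM with 200 of 10686 genes changed, the fit recovered 82% of 2-fold and 96% of 4-fold changes, and 2.73% of calls were unchanged genes. Plots and remaining steps used Python 3.11.15, pandas 2.3.3, scipy 1.17.1 and matplotlib 3.10.9.

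The members and all gene lists were chosen with earlier results of these data known. Named beside the members were, at most, the 4 genes of each list with the largest change past the threshold per comparison and the enzymes that define a step, and for members whose groups differ by at least 1 on the log2 scale the 3 genes nearest in pattern. Outside that rule, cell type markers, Stat6 and the complement C1q genes, which were in no list, were also named. Gene lists had no set test, and 1 gene of them and 1 sequence are not reported here. Alternatives were a pseudocount of 0.1, no filter, a filter of 5 FPKM, quantile normalization, rescaling to TPM, median-ratio scaling, a constant prior variance, the 2 compared groups alone, a block for the replicate number, and each sample left out in turn.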

Additional observations from a re-analysis of the deposited data

How the results depend on the processing

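Of 525 alternative values of the single genes, 497 kept their direction and their side of the threshold. The sum Ass1 + Gm5424 kept its call in all 18 alternatives of each comparison, as did the gene counts of both comparisons with Tumor-macrophage within 1.5 times. Between Tumor-AM and Ctrl-AM, leaving out 1 sample in turn gave 535 to 1255 genes (1100 with all samples), 1 to 3 members (2) and 8 to 18 other pathway genes (16). The members fell to 1 without Ctrl-AM 1, which also gave 535 genes and 8 pathway genes. Genes were 682 without Ctrl-AM 2, 546 without Ctrl-AM 3 and 675 without Tumor-AM 3, and pathway genes 9 without Ctrl-AM 3, 9 without Tumor-AM 1 and 10 without Tumor-AM 3. These fits use fewer samples. Changes of call for Arg1, Arg2 and Ass1 are given with those genes above. Asl passed between Tumor-macrophage and Ctrl-AM after rescaling to TPM (-0.33, adjusted p = 0.0299, over its alternatives 0.0299 to 0.809).

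Rescaling to TPM gives every sample the same sum, moved the median log2 change of all genes to -0.11, -0.085 and -0.22 in the 3 comparisons, and turned the calls to 475 higher and 824 lower (from 760 and 340), 2129 and 3129 (from 2588 and 2603) and 2130 and 4409 (from 2960 and 2900). Quantile normalization gave 607 and 446 between Tumor-AM and Ctrl-AM, and 2656 and 3428 between Tumor-macrophage and Ctrl-AM. Directions reversed only for changes that had not passed the threshold. Between Tumor-AM and Ctrl-AM, Oat became -0.045 with quantile normalization, -0.13 with TPM and -0.00062 with median-ratio scaling, and Slc7a1 -0.063 with TPM. Slc7a1 became -0.0059 between Tumor-macrophage and Tumor-AM with quantile normalization, and -0.038 between Tumor-macrophage and Ctrl-AM with TPM, where Oat became -0.0401. With 1 sample left out, log2 changes between Tumor-AM and Ctrl-AM ranged from -0.099 to 0.062 for Asl, -0.094 to 0.12 for Slc7a1, -0.057 to 0.025 for Odc1, -0.077 to 0.088 for Oat and -0.086 to 1.39 for Ass1, and that of Asl between Tumor-macrophage and Tumor-AM from -0.16 to 0.0059. The cause of these shifts was not tested.

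Samples share replicate numbers between groups, but the labels do not say that a number marks a mouse. Correlations of same-numbered deviations were 0.026, 0.096 and 0.109 between the tumor populations and -0.062 to 0.159 for Tumor-AM against Ctrl-AM, so the numbers were not taken as pairs. With the replicate number as a block, 938, 5069 and 5772 genes passed in the 3 comparisons, with 2, 7 and 7 members and 14, 35 and 42 pathway genes. The block gave Ass1 + Gm5424 changes of 2.36, 2.85 and 5.21 and changed no member's call.

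With 3 samples a group, some 2-fold changes in FPKM + 1 were missed on simulated data. Nos2 could not be fitted with a filter of 5 FPKM or without any 1 Tumor-macrophage sample, and Slc7a1 with a filter of 5 FPKM, because they no longer passed the filter. Nos2 in AMs rests on 0 to 19 reads per sample. The split between Ass1 and Gm5424 depends on read assignment that the sources used here do not describe. Their sum assumes no double counting and grows when reads move to the shorter Gm5424.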
